A study of Cricetiscus sungorus with 216 samples.

Results

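Transcripts of the mediobasal hypothalamus (MBH) were compared between male Djungarian hamsters held for 12, 16 or 20 weeks in short photoperiod (SP, called SD in the labels) and males kept in long photoperiod (LP, called LD in the labels) throughout. These weeks fall in the maintenance phase of the winter state, between its induction and the later return to the summer state, and together they are called mid SP here. The comparison takes 24 of the libraries of the whole series, 6 of LP and 6 of each of the 3 weeks, so that 18 mid SP libraries stand against 6 LP libraries. Each library is the MBH of 1 hamster, chosen by tissue, photoperiod and week in its title, and no expression value was used in the choice. All hamsters were adult males from 1 colony kept in LP, had food and water freely available, received no other treatment that the labels name, and were killed within a few hours of lights on. The MBH was punched from frozen coronal sections, and RNA was read on the nanopore platform, in which each read follows 1 cDNA molecule, after a PCR step. The cross-sectional design gives 1 time per hamster, and torpor or body temperature of the single hamsters was not analysed here.

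The MBH borders the third ventricle above the pituitary stalk. In the pars tuberalis, a thin sheet of pituitary tissue around that stalk, cells read the nightly melatonin signal and make thyrotropin, a hormone of a common alpha subunit (Cga) and a specific beta subunit (Tshb), in long days. Thyrotropin acts on tanycytes, the ependymal cells of the ventricle floor, which set local thyroid hormone through the deiodinases Dio2 (activating) and Dio3 (inactivating), and which also carry the proteins of retinoic acid synthesis. Neurons of the neighbouring arcuate nucleus make the feeding peptides Npy, Agrp and Pomc, and periventricular and arcuate cells make somatostatin (Sst), which restrains growth hormone.

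The LP libraries held 371982 to 3844614 estimated counts and the mid SP libraries 5996 to 4712208. The lowest was 1 library of 20 weeks (replicate 2), the only one under 10000 counts. It listed 903 genes and gives 0 for most of the genes described below, and the main count of calls is therefore also given without it. Gm32262, a predicted gene, took between 9.27% and 65.7% of all counts as the leading gene of a library, with a median of 48.9% in LP and 26.7% in mid SP. Levels are CPM (counts scaled to a common library total) adjusted with TMM, a factor that sets the bulk of genes equal between libraries. TMM moved log2 CPM by -0.31 in mid SP relative to LP, and all differences below are relative to that scale. The arcuate and MBH markers, which checked the dissection, had a summed level of 322 to 899 CPM in LP and 92.5 to 983 CPM in mid SP. Of the 11 tested, 1 was called lower, against 0.0868% of all genes tested. This was Gpr50, which is also listed for tanycytes. Since the set holds Gpr50, Sst, Npy and Pomc, it is not independent of the genes described below. Replicate 4 of 20 weeks stood lowest, with Npy at 0 and Pomc at 10.4 CPM, against at least 44.96 CPM of Pomc in every other mid SP library.

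In mid SP, 9 of the 9221 genes tested changed against LP at a false discovery rate below 0.1 (edgeR's quasi-likelihood F-test, Benjamini-Hochberg adjusted), which is 0.0976% of the genes. Of these, 8 fell (0.0868%) and 1 rose (0.0108%). Among those that fell were both thyrotropin subunits, Tshb and Cga, and genes of tanycytes and vitamin A transport, Rbp4, Vim and Gpr50. The nicotinic receptor subunit Chrna3 was the gene that rose, and Pvalb and the muscle gene Tnnt3 also fell. Without the library under 10000 counts 8 genes were called (1 higher and 7 lower), 7 of them among the 9, with Gpr50 and Pvalb lost and Aif1l gained. The filter then passed 9549 genes, among them Aif1l, which it had removed before. A further 341 genes had an unadjusted p below 0.05 without passing (all 350 are 3.8% of the genes tested, 2.62% lower and 1.17% higher). Only 4 genes (0.0434%) had every mid SP library below every LP library, among them Tshb, Cga and Rbp4. No gene had every mid SP library above every LP library, with or without the shallow library.

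**Figure D1:**
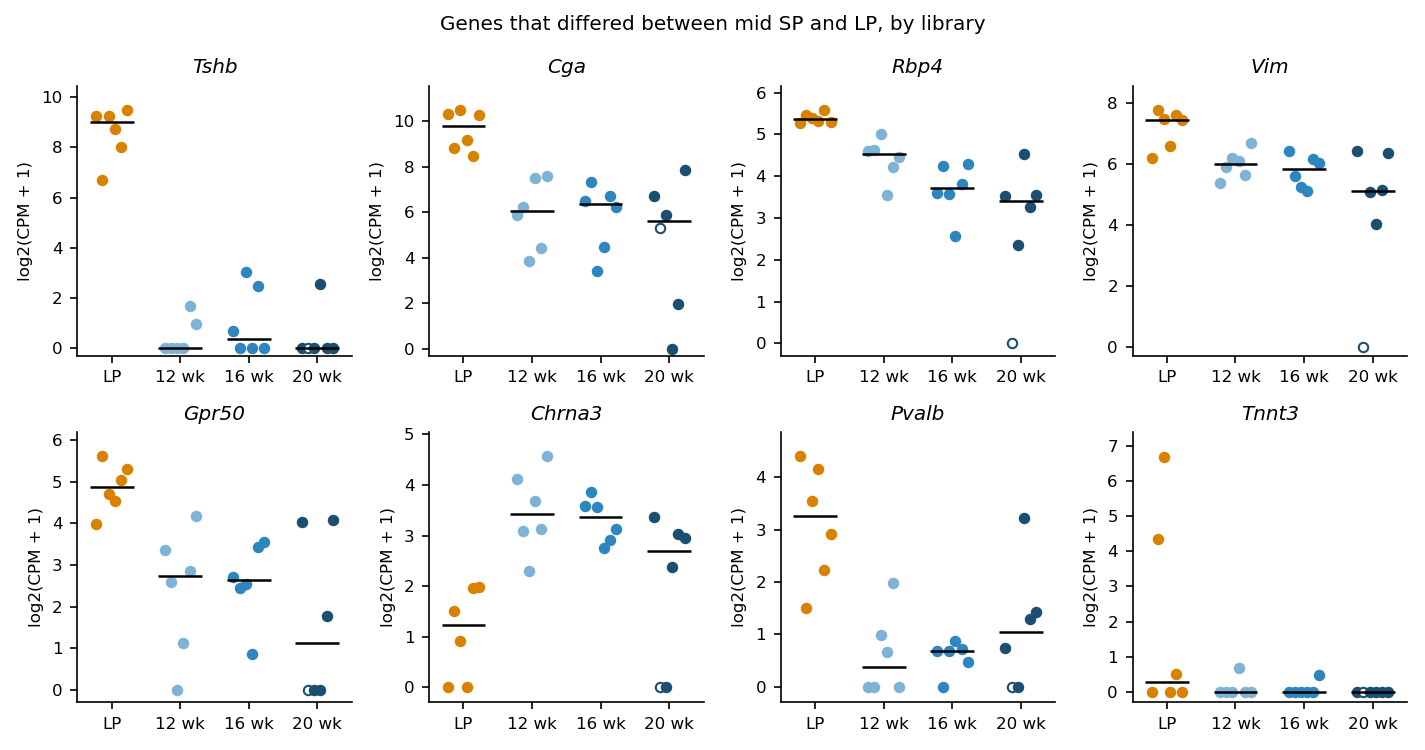
Level of 8 called genes on the log2(CPM + 1) scale in LP and at 12, 16 and 20 weeks of SP; each point is 1 library (1 hamster), each bar the median of 6, and the open point the library with 5996 counts. All 18 mid SP points lie below all LP points for Tshb, Cga and Rbp4, whereas the fall of Tnnt3 rests on 2 LP points.

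Tshb made the largest called change. In LP it had 102 CPM in the lowest library, a median of 512 and 712 CPM in the highest. It was read in 6 of the 18 mid SP libraries, with a highest value of 7.26 CPM, and the groups did not overlap. By week, 2 of 6 libraries had any Tshb count at 12 weeks, 3 at 16 weeks and 1 at 20 weeks. The 18 libraries held 34 counts between them and the 6 LP libraries 3643. The mean was 450 ± 234 CPM in LP (SD, n = 6) and 1.14 ± 2.17 CPM in mid SP (SD, n = 18), which is 395-fold lower. The log2 fold change was -8.61 (SE 0.75, adjusted p = 1.44e-11). In a dissected tissue, fewer cells of a type and less RNA per cell cannot be told apart, here and for every gene below.

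Cga, the alpha subunit shared by thyrotropin and the gonadotropins, fell less far than Tshb and stayed readable. LP libraries had 353 CPM at the lowest, 893 at the median and 1413 CPM at the highest. Mid SP libraries had 0 CPM at the lowest (replicate 4 of 20 weeks), 65.3 at the median and 230.9 CPM at the highest. The lowest LP value therefore lay above the highest mid SP value, and the means differed 11.1-fold (log2 fold change -3.44, SE 0.68, adjusted p = 0.0122 by edgeR).

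Of the 15 genes listed for the pars tuberalis and its signals, 9 were tested. Tshb and Cga were called lower, against 0.0868% of all genes tested, and 0 were called higher. The list was written with earlier results of these data known, so its count is no independent evidence. The median log2 fold change of the 9 was -0.17, against -0.07 over all genes tested, and it was -0.09 without the shallow library, -0.51 with no filter and near 0 from the highest isoform. Eya3, a coactivator induced in the pars tuberalis by long days, had 3.92 CPM at the median in LP and 4.55 in mid SP, and the groups overlapped. The thyrotropin receptor Tshr was below the filter, with 2.62 ± 1.32 CPM in LP (SD, n = 6) and 1.73 ± 1.40 CPM in mid SP (SD, n = 18).

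Hormone genes of the pituitary's main lobe were also looked at, and their levels were not compared with those of Tshb and Cga. Prl was read in 2 LP and 3 mid SP libraries, Gh in 2 and 5, and Fshb in 3 and 3. Lhb, the luteinizing hormone beta subunit, was read in 5 LP and 12 mid SP libraries, with 210 CPM in replicate 3 of LP and at most 36.3 CPM in any other. It had an unadjusted p of 0.00818 and was not called (log2 fold change -2.34, SE 0.85, adjusted p = 1.00). The summed pituitary markers, which here were mostly Pomc and Lhb, ranged from 69.9 to 376 CPM in LP and from 10.4 to 316 CPM in mid SP. Their part in the differences of Tshb and Cga was not tested. Without replicate 3 of LP, Tshb had a log2 fold change of -8.51 and Cga one of -3.26, and both were still called.

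Genes of tanycytes and of retinoic acid handling formed the other group. Rbp4, the carrier of retinol outside cells, was the steadiest of the called genes in LP, where the 6 libraries lay between 37.7 and 47.03 CPM around a median of 39.996. The 18 mid SP libraries lay between 0 and 31.3 CPM with a median of 12.1. Its log2 fold change was -1.49 (SE 0.33, adjusted p = 0.0760 by edgeR). The weekly means of Rbp4 were 21.3 ± 6.89, 12.8 ± 5.05 and 9.40 ± 7.56 CPM (SD, n = 6 each), and a difference among the weeks was not called by edgeR (adjusted p = 1.00). The call was lost in 10 of the 24 fits that left out a library, with adjusted p between 0.101 and 0.196 (LP replicates 1 to 5, 16 weeks replicates 1 and 4, and 20 weeks replicates 1, 3 and 5). It was also lost without the libraries over 100 CPM of muscle markers (adjusted p = 0.122 by edgeR). Of the 24 libraries this leaves out only replicate 3 of LP, so it is no separate loss.

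Vim encodes vimentin, the intermediate filament of tanycytes and of other glia and vessels. LP libraries had 72.8 CPM at the lowest, 174.5 at the median and 216.5 CPM at the highest. Mid SP libraries had 0, 54.1 and 102 CPM, and 14 of the 18 lay below every LP library. The log2 fold change was -1.47 (SE 0.27, adjusted p = 0.00671 by edgeR). Gpr50, an orphan receptor related to the melatonin receptors and known from tanycytes, had 14.8 CPM at the lowest, 28.5 at the median and 47.7 CPM at the highest in LP. In mid SP it had 0, 4.91 and 17.1 CPM, and 15 of the 18 libraries were below LP. Its log2 fold change was -2.17 (SE 0.51, adjusted p = 0.0991 by edgeR), just inside the threshold. It was not called from only the 24 libraries (adjusted p = 0.280), with the 18 libraries as 1 group (0.166), or without the libraries over 100 CPM of muscle markers (0.206) or those low in Npy and Agrp (0.156). Left-out fits kept the call of Gpr50 in 5 of 24 (without replicate 1 of LP, replicate 6 of 12 weeks, replicate 6 of 16 weeks, or replicate 1 or 6 of 20 weeks), and in the other 19 its adjusted p was 0.101 to 0.318. Without the shallow library alone it was 0.131.

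Aldh1a1, which makes retinoic acid from retinal, had 47.2, 107 and 138 CPM (lowest, median, highest) in LP and 0, 38.4 and 61.6 CPM in mid SP. 15 of the 18 mid SP libraries lay below every LP library, but Aldh1a1 was not called (log2 fold change -1.48, SE 0.38, adjusted p = 0.184 by edgeR). It was called when only the 24 libraries entered the fit (adjusted p = 0.0228), when the 18 were 1 group (0.0180) and from the highest isoform alone (0.00888). The 2-sided exact permutation test of its means, over 134596 splits, gave p = 5.94e-05 unadjusted, for a gene named in part for its small p. Over its alternatives and left-out fits the adjusted p ranged from 0.00888 to 0.768. Crabp1, a retinoic acid-binding protein of tanycytes and arcuate cells, had 31.01 CPM at the median in LP and 22.03 in mid SP, and was not called (log2 fold change -0.77, SE 0.44, adjusted p = 1.00). Of the 26 genes listed for tanycytes and retinoic acid, 14 were tested, 3 were called lower (Vim and Gpr50 among them) and 0 higher, against 0.0868% and 0.0108% of all genes. A negative log2 fold change was found for 11 of the 14, against 5373 of the 9221. The median of the 14 was -0.36, and -0.63 with no filter. The list was written with earlier results of these data known, so its count is no independent evidence of a direction.

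General markers of the ventricle wall give a comparison for these genes. All 6 tested ependymal markers had a negative log2 fold change, between -0.66 and -0.06, and none was called or had an unadjusted p below 0.05. Their sum was 39.2 to 136 CPM in LP and 0 to 120 CPM in mid SP. Astrocyte markers, of which 10 were tested, had a median of -0.20 with 0 called. The part of ependymal or astrocyte content in the fall of Vim was not tested.

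**Figure D2:**
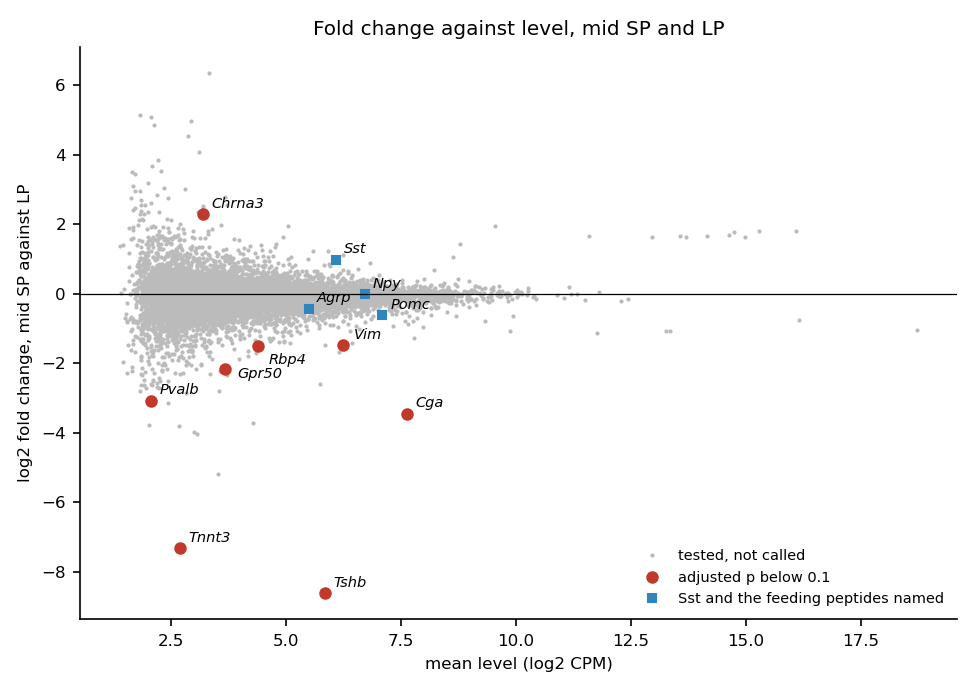
Log2 fold change of mid SP against LP for the genes tested (vertical axis) by mean level in log2 CPM (horizontal axis); red points are 8 called genes and blue squares Sst and the feeding peptides. Tshb (-8.61) lies below all other genes, Chrna3 (2.30) is the called gene above 0, and Npy (-0.01) lies on the line.

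Chrna3, the alpha 3 subunit of neuronal nicotinic acetylcholine receptors, rose in mid SP. LP libraries had 0 CPM at the lowest, 1.36 at the median and 2.97 CPM at the highest, with 20 counts in 4 of the 6. Mid SP libraries had 0, 7.58 and 22.8 CPM, and 16 of the 18 lay above every LP library. The exceptions were 2 libraries of 20 weeks at 0, one of them the shallow library. The mean was 5.94-fold higher (log2 fold change 2.30, SE 0.52, adjusted p = 0.0792 by edgeR). By week the mean of Chrna3 was 11.7 ± 6.90, 9.25 ± 3.02 and 4.56 ± 3.89 CPM in order of weeks (SD, n = 6 each). A difference among the weeks was not called by edgeR (adjusted p = 1.00). The call of Chrna3 was lost in 8 of the 24 left-out fits, with adjusted p of 0.103 to 0.303 (LP replicates 1 to 4, replicate 1 of 12 weeks, replicates 1 and 2 of 16 weeks, and replicate 1 of 20 weeks). It was also lost when only the 24 libraries entered the fit (adjusted p = 0.117, with 0 genes called higher) and without the libraries over 100 CPM of muscle markers (0.248). The latter leaves out replicate 3 of LP, which is already among the 8.

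Pvalb, the calcium buffer parvalbumin of fast-spiking neurons and fast muscle, had 1.83 CPM at the lowest, 8.60 at the median and 20.2 CPM at the highest in LP. Mid SP libraries had 0, 0.610 and 8.35 CPM, and 16 of the 18 lay below every LP library. The log2 fold change was -3.07 (SE 0.71, adjusted p = 0.0896 by edgeR), on 66 counts in LP and 40 in mid SP. The call of Pvalb was kept in 5 of the 24 left-out fits (without LP replicate 2, 5 or 6, replicate 5 of 12 weeks, or replicate 4 of 20 weeks). In the other 19 its adjusted p was 0.101 to 0.377.

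Tnnt3, the troponin T of fast skeletal muscle, was read mainly in 2 LP libraries. LP libraries had 0 CPM at the lowest, a median of 0.206 and 102 CPM at the highest, which was replicate 3. Replicate 2 of LP had 19.3 CPM, and mid SP held 2 counts in 2 of its 18 libraries. The log2 fold change of -7.32 (SE 1.43, adjusted p = 0.0122 by edgeR) became -5.16 with an adjusted p of 0.527 without replicate 3. The summed skeletal muscle markers were 170 CPM in that library, 6.54 to 26.9 CPM in the other LP libraries and 0 to 45.02 CPM in mid SP. Leaving out each library with over 100 CPM of them, which was decided on once the values were known, left 5 genes called, 4 of them among the 9, such as Tshb, Cga and Vim. The other was Aif1l, which was below the filter in the fit of all libraries. Rbp4, Gpr50, Pvalb, Chrna3 and Tnnt3 were no longer called. Of the 24 libraries only replicate 3 of LP was left out here.

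The weeks were also tested singly. Tshb was the 1 gene called against LP at 12, at 16 and at 20 weeks (0.0108% of the genes each), with log2 fold changes of -9.26 (SE 1.23), -7.59 (SE 1.11) and -8.98 (SE 1.31) by edgeR. The 3 comparisons share their LP libraries. Unadjusted p-values below 0.05 were found for 274 genes at 12 weeks (2.97%, with 1.7% lower and 1.27% higher), 281 at 16 weeks (3.05%, with 1.98% lower and 1.06% higher) and 274 at 20 weeks (2.97%, with 2.08% lower and 0.889% higher). Vim had log2 fold changes of -1.26, -1.46 and -1.68, Cga of -3.30, -3.55 and -3.48, and Gpr50 of -2.24, -2.27 and -2.002. Chrna3 came next to the threshold at 12 weeks (log2 fold change 2.73, SE 0.58, adjusted p = 0.104). Among the 3 weeks no gene was called by edgeR's F-test, 185 genes (2.01%) had an unadjusted p below 0.05, and DESeq2 called 0.

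**Figure D3:**
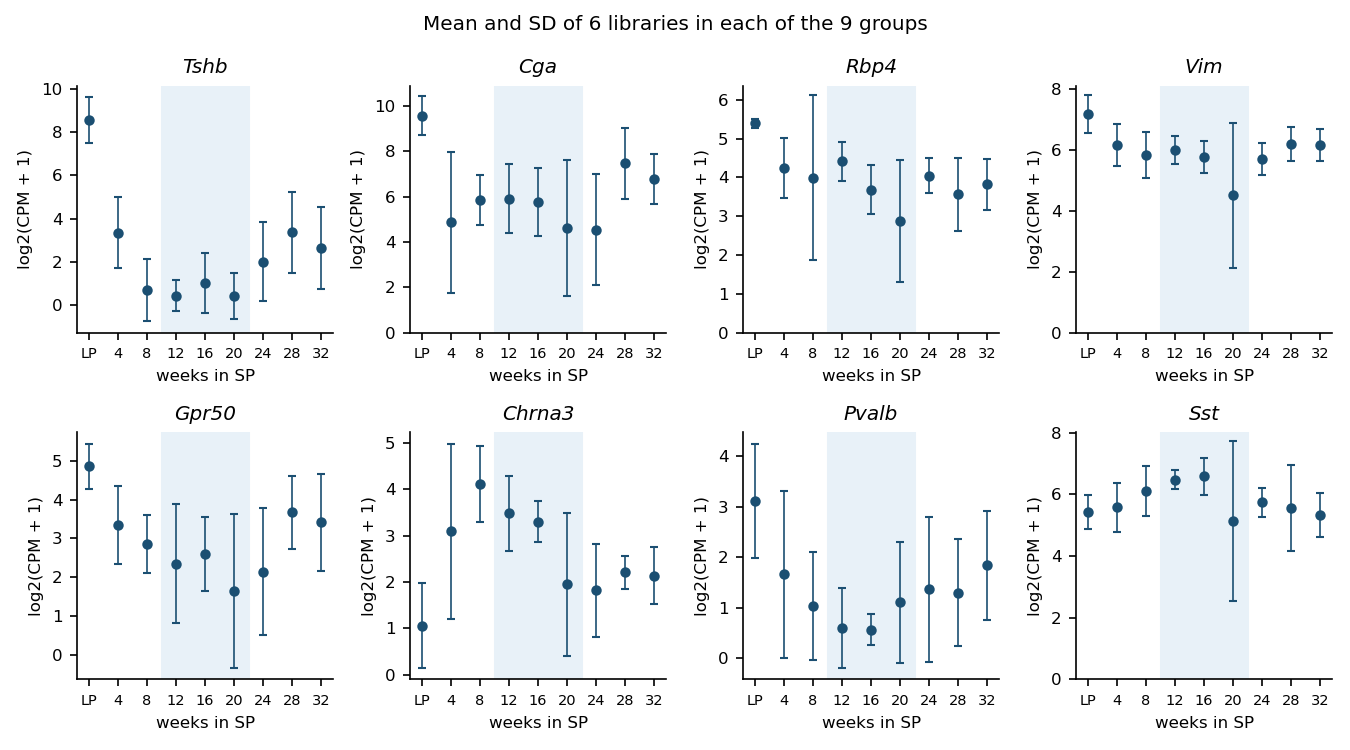
Mean level (points) and SD (bars) of 6 libraries on the log2(CPM + 1) scale in LP and after 4 to 32 weeks of SP, with 12 to 20 weeks shaded. Tshb, Cga, Vim and Gpr50 are below LP from week 4, Chrna3 is highest at 8 weeks, and the wide bars at 20 weeks include the library with 5996 counts.

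Mid SP was also set against the groups before and after it. No gene was called by edgeR between mid SP and early SP (4 and 8 weeks, 12 libraries) or late SP (24, 28 and 32 weeks, 18 libraries), with an unadjusted p below 0.05 for 2.87% of the genes (1.79% lower, 1.08% higher) and for 273 genes or 2.96% (1.92% lower, 1.04% higher). DESeq2 called 1 and 5. Tshb had means of 14.8 ± 15.4 CPM at 4 weeks and 1.89 ± 4.43 at 8 weeks, and of 6.29 ± 7.81, 15.4 ± 12.0 and 9.60 ± 9.54 CPM at 24, 28 and 32 weeks (SD, n = 6 each). It was the gene of smallest p between mid and late SP (log2 fold change -3.12, SE 0.68, adjusted p = 0.259). Chrna3 had 13.4 ± 12.96 CPM at 4 weeks and 18.4 ± 8.93 at 8 weeks, against 3.14 ± 2.08, 3.75 ± 1.17 and 3.74 ± 1.93 CPM at 24, 28 and 32 weeks. Its log2 difference of mid SP was -0.92 (SE 0.33, adjusted p = 1.00) from early and 1.196 (SE 0.32, adjusted p = 0.632) from late SP. For Vim, Cga and Gpr50 these differences lay between -0.70 and -0.08, with an adjusted p of 1.00 each. Rbp4 and Pvalb were less even across SP. Rbp4 ran from 0 to 75.4 CPM at 8 weeks, against 47.03 CPM in the highest LP library. Pvalb ran from 0 to 13.9 CPM at 4 weeks and from 0 to 11.2 CPM at 24 weeks, against 1.83 to 20.2 CPM in LP.

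No gene of thyroid hormone handling was called. Dio2 and Dio3 were below the filter and are given by their values. Dio2 was read in 5 of 6 LP libraries, with 0, 2.08 and 2.70 CPM at the lowest, median and highest, and in 15 of 18 mid SP libraries, with 0, 1.91 and 5.44 CPM. The groups overlapped (2-sided exact permutation test of the means over 134596 splits, p = 0.761 unadjusted). Dio3 was not read in LP, which allows up to 0.285 CPM over the group (3 counts, counting error only). In mid SP it had 7 counts in 5 of 18 libraries, 3 at 12 weeks and 2 at 16 weeks and none at 20 weeks, or 0.237 CPM over the group, which does not exceed the LP limit (exact permutation test, p = 0.403 unadjusted). At 4 and 8 weeks its mean was 0.722 ± 0.684 and 1.73 ± 2.09 CPM (SD, n = 6 each), and it was 0 at 24, 28 and 32 weeks.

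Of the 18 listed genes of thyroid hormone handling, 11 were tested, 0 were called and 0 had an unadjusted p below 0.05. The transporter gene Slco1c1 had a log2 fold change of -0.34 (SE 0.36). The receptor gene Thra had one of 0.46 (SE 0.25) and Ttr, the thyroid hormone carrier made by choroid plexus, one of -1.64 (SE 0.87), which was -0.96 without replicate 6 of LP. The choroid plexus markers summed to 48.5 to 125 CPM in LP and 0 to 94.4 CPM in mid SP beside it.

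Sst had 26.6 CPM in the lowest LP library, 41.9 at the median and 67.8 CPM in the highest. Mid SP libraries had 0, 83.9 and 160 CPM, and 14 of the 18 lay above every LP library, 6 of 6 at 12 weeks, 5 of 6 at 16 weeks and 3 of 6 at 20 weeks. The means were 44.7 ± 17.1 (SD, n = 6) and 86.1 ± 39.3 CPM (SD, n = 18), a 1.92-fold difference. Sst was not called by edgeR (log2 fold change 0.98, SE 0.34, adjusted p = 0.980). The exact permutation test of its means gave p = 0.0187 unadjusted, 0.00224 without the shallow library and 0.0326 on library totals in place of TMM. Against late SP its log2 difference was 0.78 (SE 0.23, adjusted p = 0.865). The receptor Sstr5 was below the filter, with 2 counts in 2 LP libraries and 22 counts in 10 mid SP libraries (exact permutation test, p = 0.0991 unadjusted).

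Of the 17 genes listed for somatostatin and the growth hormone axis, 8 were tested and 0 called. Sst was the 1 of them higher at an unadjusted p below 0.05, and Igfbp2, a binding protein of insulin-like growth factors, the 1 lower (13.7 against 6.56 CPM on average, log2 fold change -1.01, SE 0.46, adjusted p = 1.00). Igf1 had a log2 fold change of -1.66 (SE 0.98), which was -0.14 without replicate 4 of LP (83.9 CPM) and -2.89 without replicate 6 of 20 weeks, and Igf2 one of -1.17 (SE 0.71).

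The feeding peptides of the arcuate nucleus overlapped between the groups. Npy, which drives feeding, had 46.2, 102 and 184 CPM (lowest, median, highest) in LP and 0, 106 and 239 CPM in mid SP, with a log2 fold change of -0.01 (SE 0.56). Its sign turned in 19 of the 37 alternatives and left-out fits, which is why no direction is given. The fit without the shallow library stands in both sets and is counted under each. The adjusted p below 0.05 is a cutoff and no fit of its own. Agrp, made by the same neurons, had a log2 fold change of -0.43 (SE 0.53), which was -0.08 without replicate 6 and -0.22 without replicate 1 of LP. Pomc, the precursor of the satiety signal alpha-MSH, had 69.9, 187.1 and 315 CPM in LP and 10.4, 115 and 288 CPM in mid SP (log2 fold change -0.61, SE 0.40, or -0.36 without replicate 6 of LP). Of 30 listed feeding peptides and receptors, 19 were tested, 0 were called and 13 had a negative log2 fold change. Nts, neurotensin, had the smallest p of them, with 18.7 ± 4.47 CPM in LP (SD, n = 6) and 9.01 ± 4.72 in mid SP (SD, n = 18). For Nts, 13 of the 18 libraries lay below every LP library (log2 fold change -0.95, SE 0.32, adjusted p = 0.929 by edgeR). The exact permutation test of its means gave p = 0.000282 unadjusted, and 0.0693 on log2 CPM. Gal and Npy1r had log2 fold changes of 0.57 (SE 0.33) and -0.80 (SE 0.59).

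**Figure D4:**
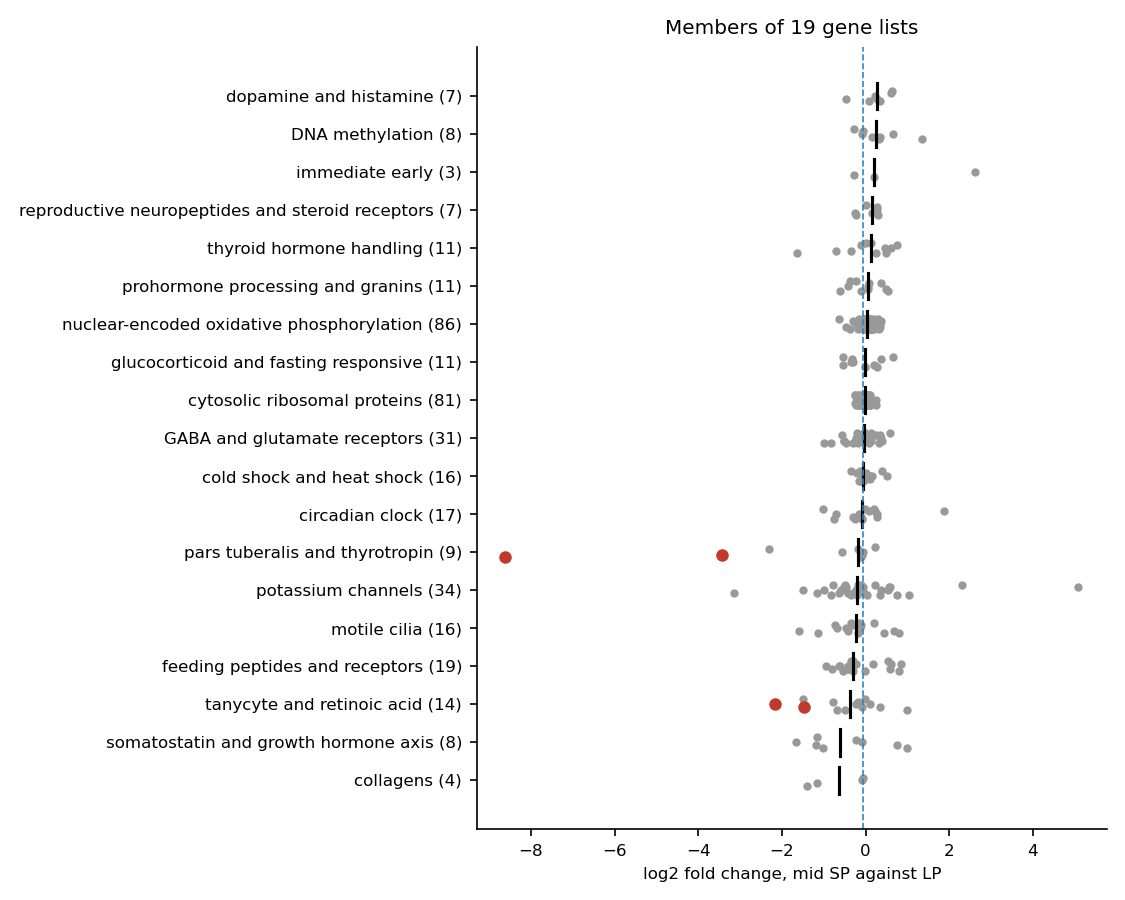
Log2 fold change of mid SP against LP for the tested members of 19 gene lists (number tested in brackets); black bars are list medians, red points called genes, and the dashed line the median of all genes tested (-0.07). The red points are Tshb and Cga in the pars tuberalis list and Vim and Gpr50 in the tanycyte list, where 1 further tested gene is not drawn.

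Over the 19 lists, 387 different genes were tested and 5 were called, in the pars tuberalis and tanycyte lists, against 0.0976% of all genes. The lists were written with earlier results of these data known, so this count is no independent evidence. The large groups of cell maintenance lay close to 0. Of 81 cytosolic ribosomal protein genes 0 were called and 0 had an unadjusted p below 0.05, with a median of -0.02 (0.04 without the shallow library) and a range from -0.26 to 0.26. Of 86 nuclear-encoded genes of oxidative phosphorylation the same held, with a median of 0.04 and a range from -0.65 to 0.37.

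The heat shock and cold shock genes gave 0 of 16, with Hspa4 at 0.51 (SE 0.28). Of the circadian clock genes 0 of 17 had an unadjusted p below 0.05. Dbp, an output gene of the clock, had a log2 fold change of -0.75 (SE 0.40), or -0.31 without replicate 1 of LP, and Cry1 one of -1.02 (SE 0.74). Since lights came on at set hours in each photoperiod, photoperiod and the distance of the kill from dusk cannot be told apart for such genes.

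Prohormone processing genes gave 0 calls among 11 tested. Scg2, a granin of secretory granules, had 116 to 163.1 CPM in LP and 0 to 150 in mid SP, with 13 of 18 libraries below every LP library (log2 fold change -0.43, SE 0.20, adjusted p = 1.00). Pcsk2, which cuts prohormones, had one of 0.48 (SE 0.30). Reproductive neuropeptides and steroid receptors gave 0 of 7, and the values of Kiss1, Tac2 and Kiss1r moved by over 1.5 times with single libraries left out. Dopamine and histamine genes gave 0 of 7, with Maoa at 0.64 (SE 0.41).

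Of 34 potassium channel genes 0 were called, 3 were lower and 1 higher at an unadjusted p below 0.05 (11.8%, against 3.8% of all genes). Kcnh7 had a median of 16.0 CPM in LP and of 0 in mid SP (log2 fold change -3.15, SE 0.94, adjusted p = 0.642), and Kcna6 8.89 and 3.82 CPM on average (log2 fold change -0.997, SE 0.49). Kcnt2 was read in 5 mid SP libraries and in no LP library. GABA and glutamate receptor genes gave 0 of 31 at an unadjusted p below 0.05, with Grik2 at -0.83 (SE 0.51), or -0.36 without replicate 1 of LP.

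Of 8 DNA methylation genes tested, Dnmt1, the maintenance methyltransferase, had an unadjusted p of 0.00644. LP libraries of Dnmt1 had 0, 12.5 and 22.4 CPM and mid SP libraries 0, 35.9 and 59.1 CPM, with 12 of 18 above every LP library (log2 fold change 1.36, SE 0.48, adjusted p = 0.990). Among the immediate early genes 3 of 20 passed the filter, and Nr4a1 had 0.581 and 4.37 CPM on average (log2 fold change 2.61, SE 1.26, adjusted p = 1.00), which was 4.21 without replicate 2 of LP and 1.46 without replicate 3 of 16 weeks. Of the glucocorticoid and fasting responsive genes 0 of 11 had an unadjusted p below 0.05, with Zbtb16 at 0.65 (SE 0.51). Motile cilia gave 0 of 16, with Cfap54 at -1.59 (SE 0.85), and collagens 0 of 4, with Col18a1 at -1.17 (SE 0.97), or -0.42 without replicate 4 of LP.

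Genes read in at least 18 of the 24 libraries were ranked by p as well, called or not. On the higher side, Chrna3 was followed by Diras2, a small GTPase of neurons (3.25 against 8.09 CPM on average, log2 fold change 1.32, SE 0.42, adjusted p = 0.819). Next came Kndc1 (1.26, SE 0.40), Cd44, a receptor for hyaluronan (1.24, SE 0.41), Wwox (1.24, SE 0.41) and Mthfsl (1.25, SE 0.42). The transcription factor Mef2c had 151.5, 212 and 286 CPM in LP and 0, 446 and 726 CPM in mid SP, and 16 of the 18 libraries lay above every LP library (log2 fold change 1.06, SE 0.37, adjusted p = 0.980). From the highest isoform alone Mef2c was called (adjusted p = 0.0197), and its adjusted p reached 1.00 in other fits. Pfkp, Rps6ka4 and Agap1 completed the 12 (with Sst and Dnmt1, given above), with log2 fold changes of 0.80, 1.45 and 1.03.

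On the lower side the 6 called genes of this kind were followed by Aldh1a1, Tuba8, Sox6, Ppp1r1b, Ggps1 and Plekhb1. Ppp1r1b, the dopamine-regulated phosphatase inhibitor DARPP-32, had 27.7 CPM at the median in LP and 13.96 in mid SP (log2 fold change -1.27, SE 0.34, adjusted p = 0.290). It was called from the highest isoform alone (adjusted p = 0.0111) and without replicate 6 of 12 weeks (0.0703). Tuba8 rested on 1 library, with 67.5 CPM in LP at the highest and a median of 1.89 CPM, and its log2 fold change of -2.52 turned to 0.31 without replicate 3 of LP. Sox6, of oligodendrocyte precursors and cortical interneurons, had a log2 fold change of -2.60 (SE 0.67, adjusted p = 0.184). Ggps1 had one of -1.64 (SE 0.46, adjusted p = 0.396).

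Plekhb1, abundant in myelinating cells, had 101, 155 and 177 CPM in LP and 0, 38.97 and 115 CPM in mid SP, and 17 of 18 libraries lay below every LP library (log2 fold change -1.67, SE 0.47, adjusted p = 0.396 by edgeR). The exact permutation test of its means gave p = 2.97e-05 unadjusted, and 0.00159 on library totals in place of TMM. Plekhb1 was named for its small p in these libraries, so this is no independent support. Plekhb1 was called by edgeR from only the 24 libraries (adjusted p = 0.0108). Oligodendrocyte markers were lower by group as well, and were not compared with Plekhb1 library by library. All 5 tested were lower, with a median log2 fold change of -0.79 and 0 called. Of the 5, 2 had an unadjusted p below 0.05 by edgeR (40%, against 3.8% of all genes). The sum of the markers was 390 to 2874 CPM in LP (median 1117) and 38.2 to 1854 CPM in mid SP (median 552). The part of these markers in the difference of Plekhb1 was not tested.

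**Figure D5:**
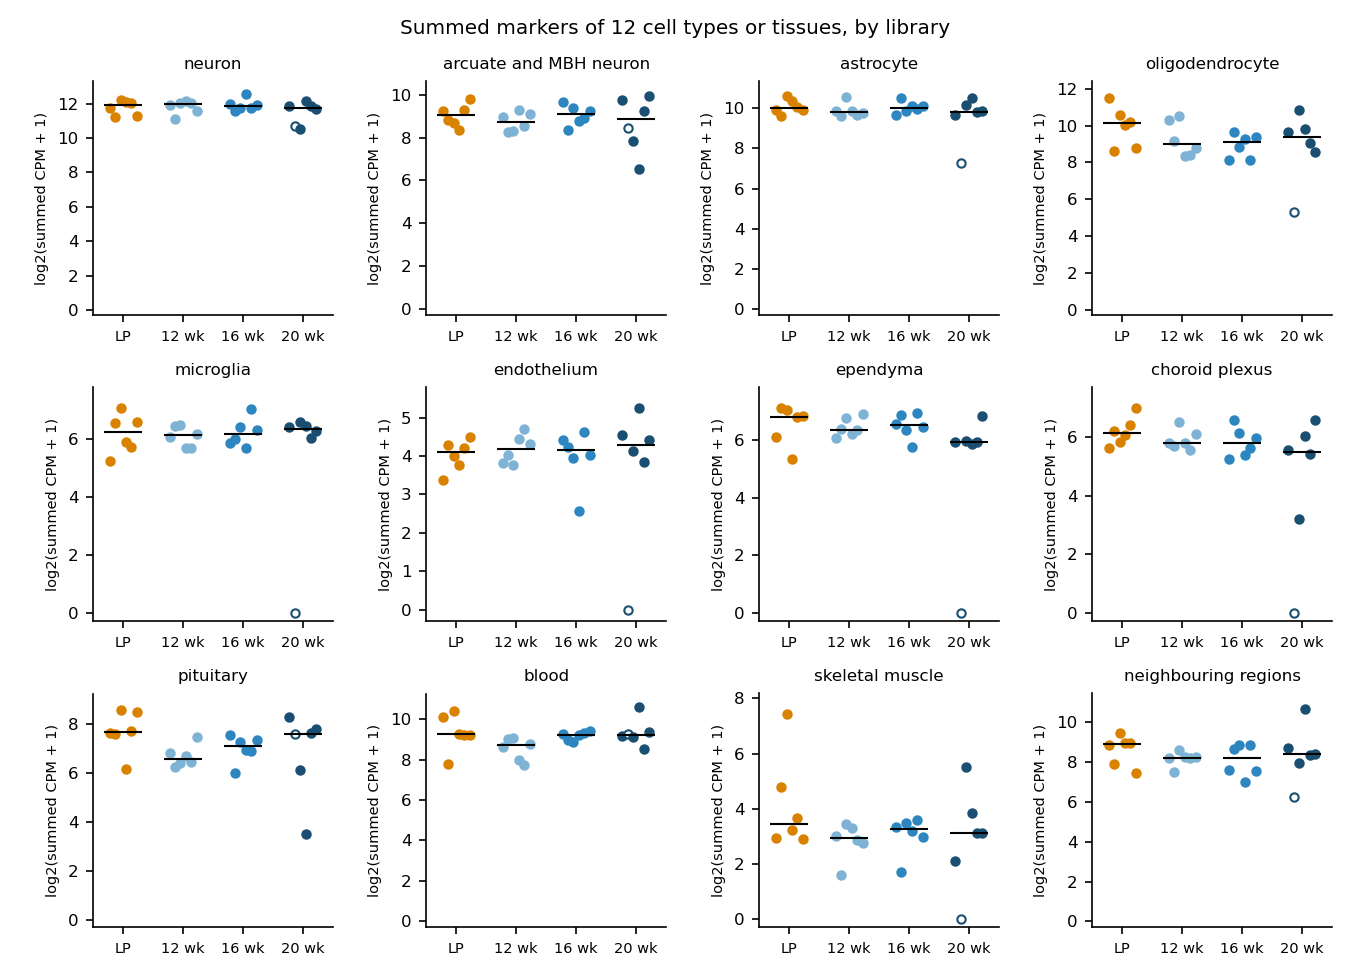
Summed level of marker genes of 12 cell types or tissues on the log2(summed CPM + 1) scale, by library, with medians as bars and the library with 5996 counts as open points. Groups overlap for each set; skeletal muscle is highest in 1 LP library (170 CPM) and the arcuate sum is lowest in 1 library of 20 weeks (92.5 CPM).

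The remaining marker sets overlapped between LP and mid SP as well. Neuron markers summed to 2420 to 4738 CPM in LP and 1457 to 5985 in mid SP, with 0 of 14 called and a median log2 fold change of -0.04 (0.02 without the shallow library). Microglia gave 0 of 7, endothelium 0 of 3 and blood 0 of 4 called, the last with 218 to 1347 CPM in LP and 212 to 1536 CPM in mid SP. Markers of the thalamus and neighbouring hypothalamic regions were at 174.8 to 700 CPM in LP and 76.3 to 1644 CPM in mid SP. The highest of these was replicate 4 of 20 weeks, the library with the lowest arcuate sum. Without the libraries of Npy and Agrp below 10 CPM, also decided on with the values known, 10 genes were called, 8 of them among the 9.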

How the data were processed

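The authors called bases with guppy, trimmed adapters with Porechop, filtered reads with Filtlong, mapped to mouse (GRCm39) by Minimap2, estimated isoform abundance with Salmon and removed low transcripts with edgeR. They deposited estimated counts per isoform without normalization (91460 isoforms of 20156 genes, of which 99.06% of the values above 0 were whole to within 1e-06). Hamster reads that align poorly to mouse are lost, and isoforms or paralogs of like sequence share reads, so levels are not compared between genes.

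Counts were summed per gene and rounded. Groups follow the sample titles and columns the animal number. edgeR 4.0.16 (quasi-likelihood F-test in the form of edgeR 3, TMM, filterByExpr) was fitted to all 54 MBH libraries in 9 groups, so that all groups share 1 estimate of the spread, and mid SP is the mean of 3 weeks against LP. Genes were called at a Benjamini-Hochberg adjusted p below 0.1, and an SE is the log2 fold change over the square root of F. Of 200 genes simulated with a 4-fold change among 9221, 73% were called, and 16 others. The simulated counts were drawn gene by gene, with no effect shared by the genes of a library. With 200 changed genes the adjustment is also milder than in the data. The 73% is therefore not the power of the comparison. Named genes, in the fit or below its filter, were also compared by mean CPM with an exact permutation test (2-sided), whose smallest p is 1.49e-05. Genes named are the called genes (1 of them, and some list members, are not reported here), the 12 of smallest p per direction read in at least 18 libraries, 8 genes of the question, up to 4 per list by p and those called at a single week. Further names are marker genes or list members outside that rule, given after their values were seen. Members and lists were chosen with earlier results of these data known. Alternatives were no filter, DESeq2 1.42.0 (size factors, or its test), edgeR 4, a replicate block, an adjusted p below 0.05, the highest isoform, other groupings, and libraries or dominant genes left out.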

Additional observations from a re-analysis of the deposited data

Results flagged for a closer look

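In groups of 6 libraries, the gap between the most distant library and its neighbour was compared with the range of the group (Dixon's test) for total counts and 16 genes, which made 68 series. Chance flags about 1 in 20 series of normally distributed values, and 8 stood out. A group with counts in only 1 library is flagged at any level, so the 8 cannot be set against that rate. Tnnt3 did so in LP through replicate 3 (102 CPM, next library 19.3), and in 2 groups with a single count, at 12 weeks (replicate 4, 0.592 CPM) and at 16 weeks (replicate 6, 0.385 CPM). Tshb had 4.87 CPM in replicate 4 of 20 weeks and 0 in the other 5 libraries of that week. Pvalb was high in replicate 5 of 12 weeks (2.94 CPM, next 0.977) and in replicate 4 of 20 weeks (8.35 CPM, next 1.68). Sstr5 was high in replicate 5 of 16 weeks (2.63 CPM, next 0.770) and in replicate 1 of 20 weeks (1.33 CPM, next 0.480). The Pvalb values are 8 counts at 12 weeks and 12 at 20 weeks, and those of Sstr5 4 and 2 counts. The Tshb value of replicate 4 of 20 weeks (7 counts) came from the library in which Npy and Cga were at 0.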

How the results depend on the processing

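Mid SP against LP gave 9 called genes, and 41 with no filter (1 higher and 40 lower), 14 from the highest isoform, 5 at an adjusted p below 0.05, and 5 without libraries over 100 CPM of muscle markers. The other fits gave 7 to 13, and 5 to 13 with 1 library left out. Without replicate 3 of LP, 5 genes were called, of which 4 were among the 9. Of the 24 libraries, only that replicate is over 100 CPM of muscle markers. Tshb, Cga and Vim were called in all 13 alternatives and all 24 left-out fits, where the fit without the shallow library is in both sets.

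Week by week the counts were 1 each, and at 12, 16 and 20 weeks 2, 3 and 1 with no filter, 3, 2 and 2 with DESeq2 size factors, 8, 7 and 7 with DESeq2's test, 3, 3 and 1 with edgeR 4, and 8, 14 and 5 from the highest isoform. Without dominant genes they were 2, 2 and 1, without the library under 10000 counts 1, 2 and 1, and with 1 library left out 1 to 3, 1 to 3 and 1 to 4. Among the weeks 0 became 1 with no filter, with edgeR 4 and from the highest isoform. Against early SP 0 became 1 with DESeq2's test, 2 with edgeR 4 and 1 from the highest isoform. Against late SP 0 became 2 with no filter, 5 with DESeq2's test, 2 with edgeR 4, 7 from the highest isoform, 3 without dominant genes and 1 without the shallow library. The causes were not tested.

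With the replicate number as a block, 9 genes were called in mid SP, 4, 2 and 2 at 12, 16 and 20 weeks and 1 against late SP. The numbers were not taken to pair hamsters, since the labels give them no such meaning. Of 33 same-number pairs, 5 had a correlation of deviations over 0.1 (-0.037 to 0.20, median 0.058, against -0.016 for different numbers). As a hint from the data, 12 of 23 libraries correlated best with their own number, though most libraries they were compared with had another number. What the numbers stand for was not tested. Kiss1 turned to -0.49 with the block and ranged from -0.17 to 0.87 with 1 library left out.

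By exact permutation, 29 of 98 named genes passed 0.1 after adjustment over these 98, which were partly chosen by p, and 16 did so without TMM. The sign also turned for Npy (0.018 with no filter, 0.042 without the shallow library, 0.027 from the highest isoform, 0.0064 without dominant genes, 0.14 without libraries under 10 CPM of Npy and Agrp, -0.17 to 0.25 with 1 left out) and Tuba8 (0.31 without muscle libraries, -2.77 to 0.31). It turned for Prlr (0.18, highest isoform), Col4a5 (0.081 with DESeq2's test, 0.026 without libraries low in Npy and Agrp) and Col25a1 (0.036, the same libraries), and with 1 library left out for Eya3 (-0.76 to 0.28), Kiss1r (-0.46 to 0.090), Col11a2 (-2.90 to 0.36), Col25a1 (-0.25 to 0.15) and Col4a5 (-1.10 to 0.37). None of these genes was called in the fit of all libraries. Depth limits genes near 1 CPM, among them Dio2, Dio3 and Sstr5.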

Other observations

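Above a log2 level of 11, 10 genes stood together in the plot of fold change against level, with log2 fold changes of 1.62 to 1.82 (SE 0.76 to 0.83, unadjusted p of 0.0211 to 0.0562, adjusted p = 1.00 each): Bc1, Cnot3, Dennd4a, Gm33937, Gm46110, Iho1, Kif3a, Lrrc17, Pex13 and Timm22. They were seen in the plot and chosen for it. Iho1 and Timm22 moved in near fixed proportion, since Iho1 was 1.46 to 1.51 times Timm22 in every one of the 24 libraries. This did not hold for all 10 genes. In LP, Timm22 ran from 270 to 13136 CPM and Bc1 from 1370 to 20522 CPM. Together they made up 1.51% to 20.7% of the summed CPM in LP (median 3.55%) and 2.77% to 32.2% in mid SP (median 25.2%). Bc1, a short brain RNA that does not code for protein, had a median of 10275 CPM in LP and 33053 CPM in mid SP. Whether these genes share reads was not tested.

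Aif1l was below the filter in the fit of all libraries, but was called in 6 alternatives (no filter, the highest isoform, and without dominant genes, the shallow library, the muscle libraries or the libraries low in Npy and Agrp) and in 23 of the 24 fits that left out a library. The filter is set anew in each fit. It passed 9422 genes without replicate 2 of LP and 9549 without replicate 2 of 20 weeks, against 9221 with all libraries. These fits share most of their libraries, so their calls are no separate support.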
